A study of Mus musculus with 33 samples.

Results

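The regions described here are 3120 narrow stretches of mouse chromatin at which MLL3 was listed in growing myoblasts and LSD1 was listed in myotubes but not in myoblasts. They were chosen from the deposited MLL3 peak list of myoblasts as the autosomal peaks narrower than 5000 bp that overlapped a myotube LSD1 peak by at least 1 bp and overlapped no myoblast LSD1 peak. The list held 208538 MLL3 peaks on the 19 autosomes, 208197 of them narrower than 5000 bp, so the chosen sites made up 1.50% of the narrow ones. The MLL3 and LSD1 peaks themselves chose the sites, and their values are therefore given as a description with no test. The chosen sites are called myotube-LSD1 sites below. They were set against 204311 narrow MLL3 sites that met no LSD1 peak in either state, called LSD1-free sites, and against 766 narrow MLL3 sites that met a myoblast LSD1 peak, called myoblast-LSD1 sites.

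All samples were C2C12 cells, an established mouse myoblast line that fuses into multinucleated myotubes once serum is lowered. Myotubes were taken after 96 h in 2% horse serum, and myoblasts while growing in medium with 10% fetal bovine serum. Binding was mapped by chromatin immunoprecipitation and sequencing (ChIP-seq) on chromatin sonicated to about 250 bp, with ING1 and Sin3A mapped in myotubes and Menin, MLL1, Wdr5 and ING1 in myoblasts, beside the LSD1 and MLL3 lists. ING1 was precipitated through a Flag tag from a stable, puromycin-selected C2C12 line carrying an introduced tagged ING1, so its lists describe tagged protein made from a retroviral vector in that line. The other proteins were precipitated with antibodies against themselves from cells for which no genotype is given. The sample labels place Sin3A in myotubes while the series text speaks of myoblasts, and the MLL1 samples carry Menin as their source label beside an MLL1 antibody. Sample titles and antibodies were followed for both.

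MLL3 is a histone methyltransferase known mainly for placing a single methyl group on lysine 4 of histone H3 (H3K4) at enhancers. LSD1 removes 1 or 2 methyl groups from the same residue and can act as a corepressor. Menin is a subunit of MLL1 complexes, MLL1 is an H3K4 methyltransferase best known at promoters, and Wdr5 is a core subunit shared by the MLL complexes. ING1 reads trimethylated H3K4 and belongs to Sin3 histone deacetylase complexes, for which Sin3A is the scaffold. MLL3 was mapped in myoblasts alone, so whether MLL3 was still at these sites in myotubes was not measured.

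The deposited lists gave peak boundaries with no height or score, so how deeply each sample was sequenced is unknown, and a site that met no peak is a site without a listed peak, not a site without the protein. The myotube LSD1 list held 16361 autosomal peaks with a median width of 627 bp, against 4419 peaks with a median width of 392 bp in the myoblast LSD1 list. Each state had a single LSD1 list and MLL3 had a single list, so the choice of sites had no replicate check, and deeper sequencing of the myotube sample cannot be told apart from a larger number of bound sites. When the myotube list was limited to its widest peaks, as many as the myoblast list held, 746 narrow MLL3 sites met the same conditions. The replicate lists of the other 6 groups ran from 122 autosomal peaks for ING1 in myotubes, replicate 3, to 22868 for Menin replicate 1. All intervals below are 95% intervals that cover counting error only, and peaks are not replicates of a condition.

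The myotube-LSD1 sites were wider than LSD1-free sites. Their median width was 1263 bp (quartiles 765 and 2112), against 1103 bp at myoblast-LSD1 sites and 630.0 bp at LSD1-free sites. The 350 myoblast-LSD1 sites that also met a myotube LSD1 peak had a median of 1276 bp, and the 416 that did not had 965.5 bp, so the myotube-LSD1 sites did not stand apart in width from the 350. They made up 0.689% of the MLL3 sites under 400 bp, 0.564% of those of 400 to 799 bp, 1.93% of those of 800 to 1499 bp, 7.38% of those of 1500 to 2999 bp and 24.4% of those of 3000 to 4999 bp. A wide site has more room to meet a peak of any list, so the shares of the 6 pooled lists are also given at matched widths. The other comparisons with LSD1-free sites, those by number of factors, distance and replicate list, were not matched for width. The width limit did not fall at a gap in the data. Just under it lay sites of 4966 bp (chr17:30598164-30603129), 4959 bp (chr10:60904051-60909009) and 4954 bp (chr2:180421281-180426234), and just over it sites of 5007, 5011 and 5019 bp met the same LSD1 conditions. Of the 341 broader autosomal MLL3 domains, 167 (49.0%) met them.

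LSD1 usually sat inside the MLL3 site and covered a minor part of it. The overlapping LSD1 peak had a median width of 610.0 bp (quartiles 486 and 824), the median site had 490.0 bases under LSD1, and those bases were 40.6% of the site (quartiles 24.3 and 64.4). The centres of the MLL3 and LSD1 peaks lay a median of 327 bp apart. The LSD1 centre fell inside the MLL3 site at 2470 sites (79.2%), and the LSD1 peak lay wholly inside it at 1540 (49.4%), while 167 sites (5.35%) lay wholly inside an LSD1 peak. More than 1 LSD1 peak met 323 sites (10.4%), up to 5 peaks at 1 site.

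The borders of the choice were soft in several places. At 80 sites (2.56%) fewer than 50 bases were under LSD1, and the smallest overlap was 1 base. A further 106 MLL3 sites without myoblast LSD1 missed a myotube LSD1 peak by 50 bp or less, and 1678 missed one by 500 bp or less. A myoblast LSD1 peak lay within 1 kb of 138 myotube-LSD1 sites (4.42%), against 0.445% of LSD1-free sites, and within 10 kb of 792 (25.4%), against 5.14%. At 55 sites (1.76%) every LSD1 peak that met the site also met a myoblast LSD1 peak just beside it, so there LSD1 was listed next to the site in both states.

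The share of these sites that also carried other chromatin proteins was the first question, and the 6 pooled lists used for it took no part in choosing the sites. Myotube-LSD1 sites met each of the 6 factors more often than LSD1-free sites and less often than myoblast-LSD1 sites. Menin was the most frequent at 1195 of 3120 sites, followed by Wdr5 at 591, Sin3A at 323, ING1 of myotubes at 246, ING1 of myoblasts at 189 and MLL1 at 162.

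Of the subunits of H3K4 methyltransferase complexes, Menin met 38.3% of myotube-LSD1 sites (36.6 to 40.0) and 8.48% of LSD1-free sites, a difference of 29.8 percentage points (28.1 to 31.5). Menin met 9.23% of all narrow MLL3 sites. The direction held on all 19 autosomes, and at the widths of the myotube-LSD1 sites the share of LSD1-free sites would be 16.0%, a ratio of 2.40 in place of 4.51. Wdr5 met 18.9% of myotube-LSD1 sites (17.6 to 20.4) and 5.72% of LSD1-free sites, 13.2 points apart (11.9 to 14.6), with 6.22% of all narrow sites as the background. Matching the widths brought the Wdr5 difference to 8.02 points (6.59 to 9.44) and the ratio to 1.73, which was the lowest of the 6 factors. MLL1 met 5.19% of myotube-LSD1 sites (4.44 to 6.03) and 0.526% of LSD1-free sites, against 0.719% of all narrow sites. The MLL1 difference was 4.67 points (3.94 to 5.50), the ratio at matched widths was 4.54, and the share was higher at myotube-LSD1 sites on 17 of 19 autosomes and lower on the other 2.

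The ING1 and Sin3A lists, which belong to the deacetylase side, gave smaller shares than Menin and Wdr5 and larger ratios at matched widths than any of the 3 methyltransferase-complex lists. ING1 in myotubes met 7.88% of myotube-LSD1 sites (6.96 to 8.89) and 0.431% of LSD1-free sites, 7.45 points apart (6.56 to 8.45), with 0.839% of all narrow sites as the background. ING1 in myoblasts met 6.06% (5.25 to 6.95) and 0.356%, 5.70 points apart (4.92 to 6.59), with a background of 0.702%. Sin3A in myotubes met 10.4% (9.31 to 11.5) and 0.900%, 9.45 points apart (8.43 to 10.6), with a background of 1.35%. At matched widths the ratios of myotube-LSD1 to LSD1-free sites were 9.52 for ING1 in myotubes, 8.88 for ING1 in myoblasts and 5.12 for Sin3A, and the direction held on all 19 autosomes for each. Menin and Wdr5 were thus the most frequent factors with the lowest ratios, and ING1 had the highest ratios at low shares. The Menin and Wdr5 lists were also the longest, at 68934 and 58123 autosomal peaks, so their place cannot be told apart from list length. The others held 13845 (Sin3A), 9570 (ING1 in myotubes), 8795 (MLL1) and 8114 (ING1 in myoblasts). MLL1, at 4.54, lay near Sin3A. In single replicates, without matched widths, ratios were 13.1 and 41.4 for MLL1, 17.5 and 28.5 for Sin3A and 17.5 to 25.4 for ING1. With the wider 50% of each list the differences were 4.93 points for ING1 in myotubes and 3.40 points for ING1 in myoblasts, and with an overlap of 50% of the shorter peak that of ING1 in myoblasts was 3.78 points.

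**Figure D1:**
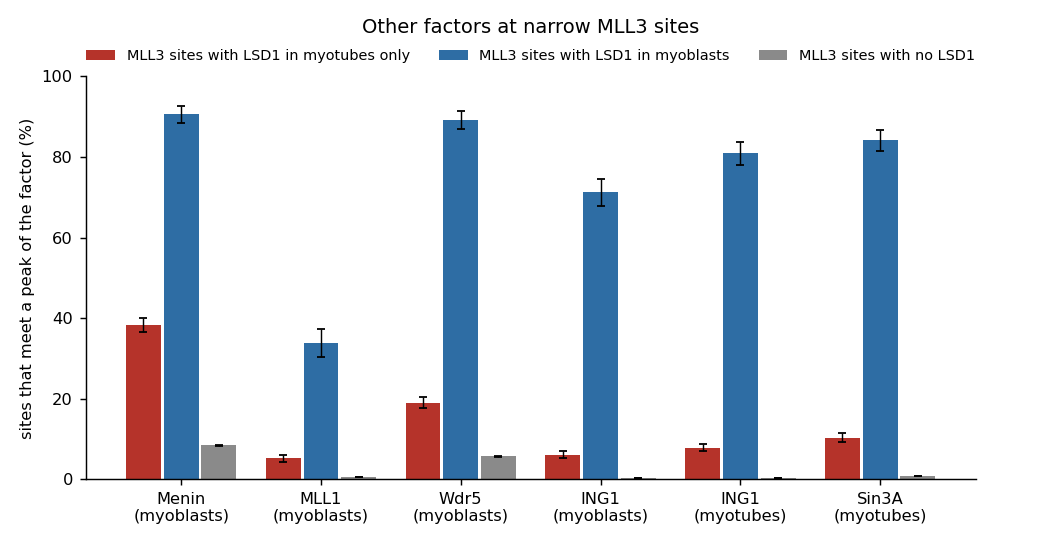
Percent of narrow MLL3 sites (vertical axis) that met a peak of each other factor, for 3120 sites with LSD1 in myotubes only (red), 766 sites with LSD1 in myoblasts (blue) and 204311 sites with no LSD1 (grey). Bars are shares of the pooled lists and error bars exact binomial 95% intervals. For every factor the red bar stands between the other bars, from 5.19% for MLL1 to 38.3% for Menin.

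Sites that LSD1 already held in myoblasts were far richer in all 6 factors. Menin met 38.3% of myotube-LSD1 sites and 90.7% of myoblast-LSD1 sites, a difference of -52.4 points (-54.9 to -49.6), and Wdr5 met 18.9% and 89.3%, a difference of -70.4 points (-72.8 to -67.6). MLL1 met 5.19% of myotube-LSD1 sites and 33.8% of myoblast-LSD1 sites (-28.6 points, -32.1 to -25.3). In the pooled lists the gap was widest for Sin3A and for ING1 in myotubes. Sin3A met 10.4% of myotube-LSD1 sites and 84.2% of myoblast-LSD1 sites (-73.9 points, -76.5 to -70.9), ING1 in myotubes met 7.88% and 80.9% (-73.1 points, -75.8 to -70.0), and ING1 in myoblasts met 6.06% and 71.3% (-65.2 points, -68.4 to -61.8). The order of the gaps changed with the lists. With the wider 50% of each list Wdr5 had the widest gap, at -73.2 points, against -62.4 for Sin3A and -51.2 for ING1 in myotubes. With unions of replicate lists Sin3A had -70.1 points and ING1 in myotubes -34.0. In the pooled lists all 6 shares were lower at myotube-LSD1 sites on all 19 autosomes. Sin3A met 92.0% of the 350 myoblast-LSD1 sites with myotube LSD1 and 77.6% of the 416 without it, so either class lay far above the myotube-LSD1 sites. The LSD1 lists that set these classes apart differed in length, at 4419 peaks in myoblasts and 16361 in myotubes. The shares were not taken for the 746 sites left at equal length, so an effect of LSD1 list length cannot be told apart here.

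The 6 lists were therefore counted together at each site, with ING1 counted once for each state. The lists come from both states, so a high count does not mean that the proteins were listed together in the same state. None of the 6 was listed at 1669 myotube-LSD1 sites (53.5%, 51.7 to 55.3), against 3 myoblast-LSD1 sites (0.392%) and 86.9% of LSD1-free sites. Exactly 1 factor met 920 myotube-LSD1 sites (29.5%), and at 713 of them (22.9% of all) that factor was Menin, against 6.59% of LSD1-free sites with Menin alone. Wdr5 alone met 149 sites (4.78%), against 3.97% of LSD1-free sites, and Menin with Wdr5 met 138 (4.42%), against 1.02%. At the other end 225 sites (7.21%, 6.33 to 8.18) met 4 or more factors, against 81.7% of myoblast-LSD1 sites and 0.329% of LSD1-free sites, and 39 sites (1.25%) met all 6, against 20.2% of myoblast-LSD1 sites and 0.0372% of LSD1-free sites. The set that lacked MLL1 alone, Menin with Wdr5, ING1 in both states and Sin3A, was the most frequent large combination, at 74 sites (2.37%), against 0.0710% of LSD1-free sites.

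**Figure D2:**
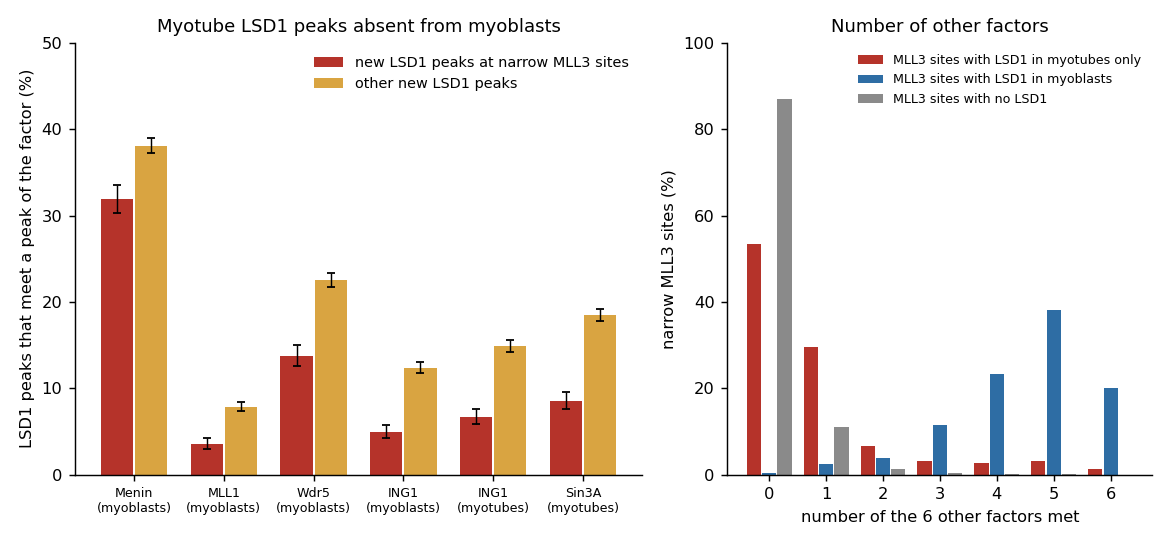
Left, percent of myotube LSD1 peaks absent from the myoblast list (vertical axis) that met each other factor. Red bars are 3305 peaks at the myotube-LSD1 sites and yellow bars the other 11166, some of which may meet other MLL3 peaks. Error bars are exact binomial 95% intervals. Right, percent of narrow MLL3 sites (vertical axis) by number of the 6 other factors met (horizontal axis), for sites with LSD1 in myotubes only (red), with LSD1 in myoblasts (blue) and with no LSD1 (grey). Every red bar on the left is lower than its yellow neighbour, and on the right 53.5% of the red sites met no factor.

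These 3 kinds of myotube-LSD1 site differed in shape as well. The 225 sites with 4 or more factors had a median width of 1081 bp and LSD1 peaks with a median of 735 bp, the 713 sites with Menin alone had 1670.0 bp and 646 bp, and the 1669 sites with none had 1113 bp and 583 bp. The LSD1 centre lay inside the MLL3 site at 58.7% of the sites with 4 or more factors, 87.8% of the sites with Menin alone and 78.8% of the sites with none. LSD1 was thus centred beside the MLL3 peak most often at the sites with 4 or more factors. A myoblast LSD1 peak lay within 10 kb of 35.6% of the sites with 4 or more factors, of 37.6% of those with Menin alone and of 16.1% of those with none.

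The 6 sites that met all 6 factors with most bases under LSD1 show the crowded kind. The site at chr5:143665359-143667269 (1911 bp) was 87.2% under LSD1, and Wdr5 covered 100% of it, ING1 in myoblasts 80.4%, Menin 70.0%, ING1 in myotubes 62.8%, Sin3A 54.1% and MLL1 7.85%. At chr11:102977695-102979511 (1817 bp) Menin covered 100%, Sin3A 94.6%, Wdr5 87.1%, ING1 in myotubes 81.0% and MLL1 67.9%. The sites at chr6:113027571-113028549, chr14:106291988-106293295, chr11:88920897-88921644 and chr5:125656885-125658130 were 90.3%, 63.5%, 100% and 56.5% under LSD1. Menin covered 85.5% of the last and all of the other 3. The cover by ING1 in myotubes ran from 82.6% to 87.6% over those 3 and was 9.47% at the last, so meeting all 6 lists did not mean equal cover.

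The 6 sites with most bases under LSD1 were picked without regard to the other factors, unlike the sites above that met all 6. Over all myotube-LSD1 sites 53.5% met none of the 6 factors. Among those of 3000 to 4999 bp Menin met 51.6%, so the mix below is not particular to these sites. The most bases under LSD1 were at chr11:59026222-59031074, where 3 LSD1 peaks covered 4532 of 4853 bp (93.4%) and none of the 6 other factors was listed. The same was true of chr10:79321843-79325933, with 3931 bases (96.1%) under 1 LSD1 peak, and of chr15:23505301-23509817, with 3839 bases (85.0%) under 2. Another site without other factors, chr9:21436528-21441019, had 3305 bases under 3 LSD1 peaks. The other 3 of the 6 sites with most bases under LSD1 met Menin. At chr15:73006831-73010720 Menin covered 87.3% of the site and was alone. At chr15:77659329-77663366 Menin covered 96.2% and Sin3A 10.9%, and at chr8:98321491-98326435 Menin covered 18.2%, Wdr5 9.81% and Sin3A 8.59%. Heavy cover by LSD1 was therefore listed both without other factors and with up to 3 of them.

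Width and factors went together in different ways for different proteins. The Menin share at myotube-LSD1 sites was 22.3% in the class under 400 bp and 51.6% in the class of 3000 to 4999 bp, and in every width class it exceeded that of LSD1-free sites, by 14.0 points (8.13 to 19.7) in the widest. The Wdr5 share exceeded that of LSD1-free sites by 12.0 points (9.41 to 15.0) between 400 and 799 bp. In the widest class Wdr5 met 27.0% of myotube-LSD1 sites and 27.3% of LSD1-free sites, a difference of -0.251 points (-5.29 to 5.11), and MLL1 met 3.48% and 3.65% (-0.170 points, -2.09 to 2.39). In that class, then, no difference was detectable for Wdr5 or MLL1. ING1 in myotubes met 10.2% of myotube-LSD1 sites between 400 and 799 bp and 4.55% in the widest class, so its share was lower among the widest sites, while that of LSD1-free sites was 0.289% and 2.01%. Sin3A met 11.5% and 10.2% of myotube-LSD1 sites in the same classes.

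**Figure D3:**
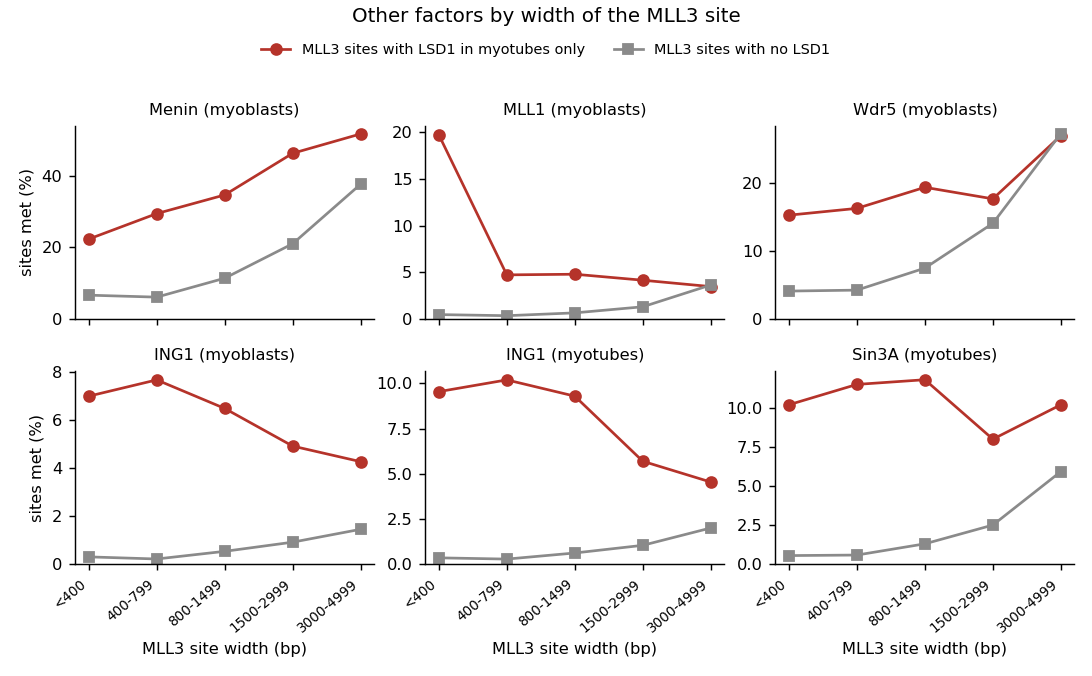
Percent of narrow MLL3 sites that met each other factor (vertical axes, scales differ) by width class of the MLL3 site in bp (horizontal axis), for sites with LSD1 in myotubes only (red circles) and with no LSD1 (grey squares). The lines meet in the widest class for Wdr5 (27.0% and 27.3%) and MLL1 (3.48% and 3.65%), and the MLL1 share of 19.7% under 400 bp rests on the start of chromosome 9.

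The high MLL1 share among the narrowest sites came from a single place. MLL1 met 31 of 157 myotube-LSD1 sites under 400 bp (19.7%), and 21 of those 31 lay in the first 200 kb of listed sequence of chromosome 9. Outside the first 200 kb of listed sequence of each autosome, MLL1 met 7 of 125 such sites (5.60%). In all, 56 myotube-LSD1 sites (1.79%) lay in these first stretches, 22 on chromosome 9 and 20 on chromosome 11, against 0.150% of LSD1-free sites. Without them the MLL1 difference was 3.86 points (3.19 to 4.64) and the others moved little, for example to 30.3 points for Menin. The stretches were set aside after the run on chromosome 9 had been seen, and the part of repeated sequence in them was not tested.

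Whether the other factors lay under LSD1 or merely elsewhere in the same MLL3 site was then measured in bases. LSD1 covered 38.2% of the 4903 kb in myotube-LSD1 sites. ING1 in myotubes covered 4.13% of the bases under LSD1 and 1.43% of the other bases of the sites, a ratio of 2.90, and the ratio was 2.56 for ING1 in myoblasts, 2.51 for Sin3A and 2.15 for MLL1. It was 1.39 for Wdr5, and for Menin, with 26.0% under LSD1 and 20.8% elsewhere, 1.25. Where a site met a factor, the factor's peak touched the part under LSD1 at 92.7% of sites for ING1 in myotubes, 87.8% for ING1 in myoblasts, 89.2% for Sin3A, 84.6% for MLL1, 82.9% for Menin and 78.2% for Wdr5. Cover by Menin and Wdr5 thus differed less between the bases under LSD1 and the other bases than that by ING1, Sin3A and MLL1. The bases were pooled over all sites, with or without the factor, so evenness within single sites was not measured. A met site was covered by the factor over a median of 58.1% of its bases for Menin and of 37.3% to 42.8% for the other 5 lists.

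Around the sites the excess of other factors reached far beyond the MLL3 peak. At the site centre Menin covered 23.7% of myotube-LSD1 sites and 5.52% of LSD1-free sites, at 10 kb it covered 16.3% and 5.19% of positions, and at 100 kb 6.68% and 4.51%. ING1 in myotubes covered 3.81% and 0.189% of centres, and 2.36% and 0.589% of positions at 10 kb, so the ratio was 20.1 at the centre and 4.00 at 10 kb. For Menin the ratio was 4.29 at the centre and 3.14 at 10 kb, a shallower decline. MLL3 itself covered 25.6% of positions 10 kb from myotube-LSD1 sites and 14.9% of those from LSD1-free sites. The median site had 19 MLL3 peaks within 50 kb (quartiles 14 and 25), against 15.0 at LSD1-free sites (9 and 23). At myoblast-LSD1 sites the median was 17 (12 and 22). The myotube-LSD1 sites thus lay in stretches somewhat denser in MLL3 than LSD1-free sites, and myoblast-LSD1 sites lay between them.

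**Figure D4:**
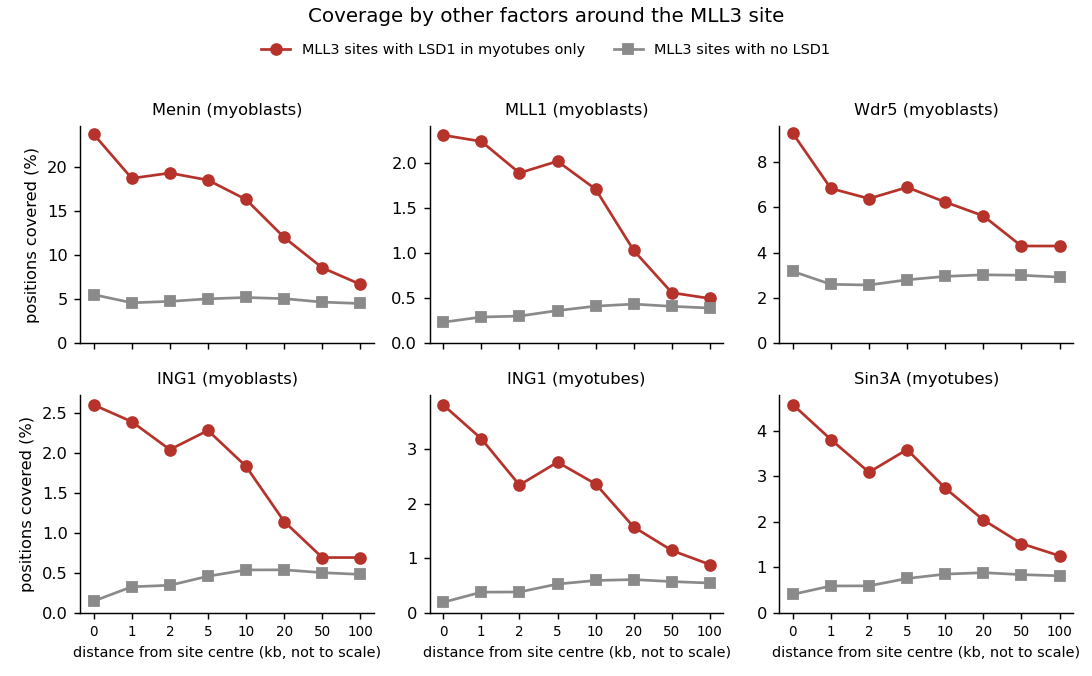
Percent of positions covered by peaks of each other factor (vertical axes, scales differ) at set distances from the centre of the MLL3 site (horizontal axis in kb, not to scale, both sides pooled), for 3120 sites with LSD1 in myotubes only (red circles) and 204311 sites with no LSD1 (grey squares). The red lines stay above the grey lines out to 100 kb, where Menin covered 6.68% and 4.51% of positions.

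A Menin peak lay within 10 kb of 2655 myotube-LSD1 sites (85.1%), against 38.9% of LSD1-free sites, and a Wdr5 peak within 10 kb of 74.8%, against 49.4%. Sin3A lay within 10 kb of 50.8%, against 15.2%, ING1 in myotubes of 42.0%, against 10.2%, ING1 in myoblasts of 38.7%, against 9.08%, and MLL1 of 30.1%, against 8.91%. Most sites without Menin on them thus had Menin nearby.

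The myotube-LSD1 sites were also compared as LSD1 sites. They were met by 3305 myotube LSD1 peaks that overlapped no myoblast LSD1 peak, and 11166 such new LSD1 peaks met none of them. The 11166 were not limited to places without MLL3. New LSD1 peaks that met only broad MLL3 domains or myoblast-LSD1 sites were counted among them. New LSD1 peaks at the myotube-LSD1 sites met every other factor less often than the other new LSD1 peaks. The shares were 31.9% and 38.1% for Menin (-6.16 points, -7.97 to -4.32), 13.8% and 22.5% for Wdr5 (-8.71 points, -10.1 to -7.27) and 3.57% and 7.88% for MLL1 (-4.31 points, -5.09 to -3.47). For the deacetylase lists they were 8.56% and 18.5% for Sin3A (-9.94 points, -11.1 to -8.71), 6.72% and 14.9% for ING1 in myotubes (-8.19 points, -9.23 to -7.07) and 4.99% and 12.4% for ING1 in myoblasts (-7.44 points, -8.37 to -6.44). The direction held on 17 autosomes for Menin, on 18 for MLL1 and on all 19 for the other 4 lists, and at matched LSD1 widths the ratios ran from 0.393 for ING1 in myoblasts to 0.846 for Menin. With the sites limited to those narrower than 2000 bp, new LSD1 peaks at the wider sites counted among the other peaks, so both groups changed. The differences were then -2.59 points for MLL1, -5.84 for Wdr5 and -6.72 for Menin. They were -4.82 for ING1 in myoblasts, -5.34 for ING1 in myotubes and -6.88 for Sin3A. With the wider 50% of each list the differences were -4.95 points for ING1 in myoblasts and -5.38 for ING1 in myotubes. The plot of new LSD1 peaks shows the 6 pairs of shares.

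ING1 was the one protein outside the choice of sites that was mapped in both states. In the pooled lists 143 myotube-LSD1 sites (4.58%) met ING1 in both states, 103 (3.30%) in myotubes alone and 46 (1.47%) in myoblasts alone. At LSD1-free sites the shares were 0.172%, 0.258% and 0.184%, and at myoblast-LSD1 sites 61.1%, 19.8% and 10.2%. ING1 in both states was thus the most frequent of the 3 patterns at sites with LSD1 in either state. At LSD1-free sites its share was close to that of myoblasts alone and lower than that of myotubes alone. In myotubes 40, 46 and 1 sites met replicates 1, 2 and 3 (1.28%, 1.47% and 0.0321%), and in myoblasts 4 and 122 met replicates 1 and 2 (0.128% and 3.91%). The states overlapped, since the myotube values lay between the myoblast ones or under both. The mean share was 0.929% ± 0.783 in myotubes (SD, n = 3) and 2.02% ± 2.67 in myoblasts (SD, n = 2), a difference of -1.09 points (exact two-sided permutation test, p = 0.600, adjusted p = 0.600). That difference turned to 0.801 points without myoblast replicate 2, with 1 myoblast list left (exact permutation, p = 1.00).

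Dividing by the share of LSD1-free sites in the same list takes part of the list length out of this comparison. The ratios were 25.4, 24.7 and 21.8 in myotubes and 17.5 and 24.4 in myoblasts, with means of 24 ± 1.90 (SD, n = 3) and 20.9 ± 4.93 (SD, n = 2). The difference of 3.04 did not pass (exact two-sided permutation test, p = 0.400, adjusted p = 0.600 over the 2 measures), and it turned to -0.448 without myoblast replicate 1 (exact permutation, p = 1.00). With 3 against 2 lists the smallest possible p was 0.2, so no difference between the states could be shown by this design. Labels do not say that replicates came from separate cultures, and the spread between them may be technical.

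The share was higher than at LSD1-free sites in each of the 14 replicate lists, though the shares followed the length of the list. For ING1 in myotubes, replicate 3, this rested on 1 site, against 3 LSD1-free sites. Its interval (0.000811% to 0.178%) took in the LSD1-free share of 0.00147%, so this list showed no clear excess. For ING1 in myoblasts, replicate 1, it rested on 4 sites. Menin met 17.5% and 11.3% of myotube-LSD1 sites in replicates 1 and 2, against 2.07% and 1.19% of LSD1-free sites. Wdr5 met 5.93%, 3.43% and 3.46% in replicates 1, 2 and 3, against 0.650%, 0.249% and 0.285%. The replicates of these 2 factors lay close together, with ratios of 8.45 and 9.50 for Menin and of 9.13, 13.8 and 12.1 for Wdr5. MLL1 met 2.56% and 0.385% in replicates 1 and 2, against 0.196% and 0.00930%, and Sin3A met 7.56% and 0.321%, against 0.433% and 0.0113%. For MLL1, Sin3A and ING1 in myoblasts a single replicate thus held nearly all sites. Replicates differed in ratio too, at 13.1 and 41.4 for MLL1 and 17.5 and 28.5 for Sin3A, where the higher ratio belonged to the shorter list each time and rested on 12 and 10 sites.

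**Figure D5:**
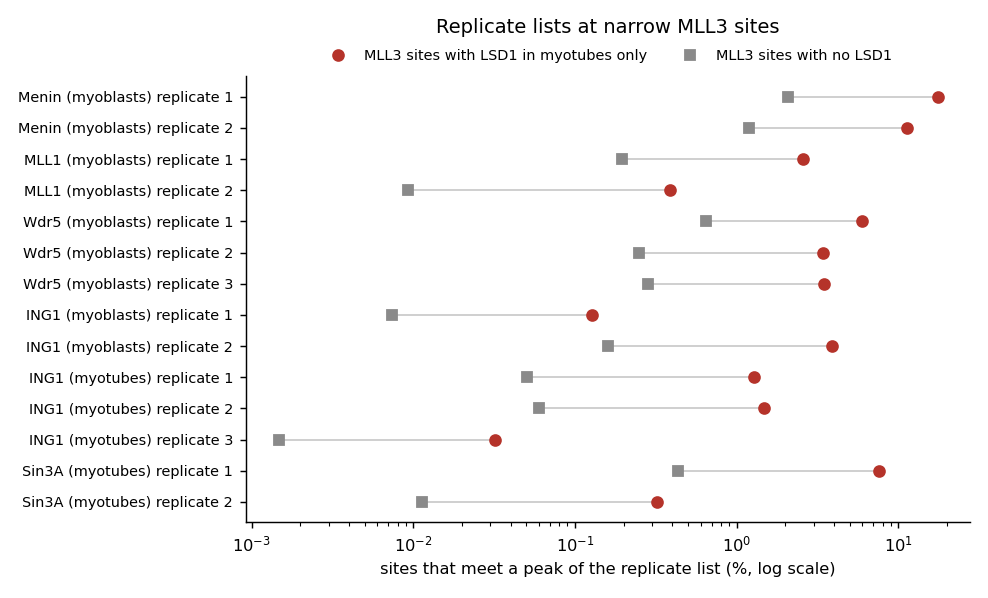
Percent of narrow MLL3 sites that met each replicate list (horizontal axis, log scale), for 3120 sites with LSD1 in myotubes only (red circles) and 204311 sites with no LSD1 (grey squares), with 1 row per list. The red circle lies to the right of the grey square in all 14 lists, at ratios from 8.45 to 41.4.

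Many of the pooled peaks at these sites were in no replicate list. Of the sites that met a factor in the pooled list, a peak of any replicate list met 48.9% for Menin, 37.4% for Wdr5, 48.1% for MLL1, 28.0% for ING1 in myotubes, 57.1% for ING1 in myoblasts and 71.5% for Sin3A. Every replicate list of the factor met 268 sites for Menin, 56 for Wdr5, 10 for Sin3A, 8 for MLL1, 2 for ING1 in myoblasts and none for ING1 in myotubes. With unions of the replicate lists, the difference from LSD1-free sites was 17.7 points for Menin, 6.80 for Wdr5, 2.50 for MLL1, 3.81 for ING1 in myoblasts, 2.13 for ING1 in myotubes and 7.13 for Sin3A.

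Leaving out 1 replicate moved several of these values, and each interval still lay above 0. Without replicate 1 the difference was 10.1 points for Menin, 4.42 for Wdr5, 0.375 for MLL1 and 0.309 for Sin3A. Without replicate 2 it was 0.121 points for ING1 in myoblasts and 1.23 for ING1 in myotubes, and without myotube replicate 1 of ING1 it was 1.45. The same replicates carried the difference from myoblast-LSD1 sites, where the Sin3A value was -70.1 points with the union and -5.29 without replicate 1, the MLL1 value -16.2 and -1.31 without replicate 1, and the value of ING1 in myoblasts -52.3 and -5.62 without replicate 2. ING1 in myotubes gave -34.0 points with the union and -22.5 without replicate 2. For new LSD1 peaks the union gave -9.21 points for Sin3A and -0.448 without replicate 1, -2.86 for MLL1 and -0.427 without replicate 1, and -5.51 for ING1 in myoblasts and -0.594 without replicate 2. The union of the ING1 lists of myotubes gave -3.33 points there. All of these kept their sign.

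Along the genome the myotube-LSD1 sites were uneven. They made up 2.51% of the narrow MLL3 sites of chromosome 15 (394 sites), 2.47% of those of chromosome 8 (296) and 2.11% of those of chromosome 11 (421), against 0.745% of those of chromosome 7 (44). The Menin share of the sites varied less, from 30.1% on chromosome 8 to 45.4% on chromosome 10, and was 6.30% to 10.9% at LSD1-free sites.

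Many sites lay close to another of their kind. With gaps of up to 10 kb, 1455 sites (46.6%) formed 539 runs of 2 or more, 44 of them with 5 or more, and 1665 sites stood alone. Runs were not counted for other MLL3 sites, so whether this closeness is particular to the myotube-LSD1 sites was not tested. The longest run, chr9:3001533-3036831, held 22 sites with a median width of 240.0 bp, and 5128 of its 5193 bases of MLL3 sites were under LSD1. MLL1 met 21 of these 22 sites and Menin 1, at the start of the listed sequence. The run at chr11:3050437-3097826, also close to the start of its chromosome's listed sequence, held 14 sites, of which Wdr5 met 7, ING1 in myotubes 4, MLL1 2 and Menin 1. The other long runs held wider sites. The run at chr18:83086038-83167603 held 14 sites with a median width of 2206 bp, 5 with Menin and 9 with none of the 6 factors. The run at chr11:32546497-32600970 held 12 sites with a median of 1994 bp, 5 with Menin and 6 with none. Genes at these regions are not named, because an annotation of build mm9 was not used here.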

How the data were processed

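The authors deposited the chromosome and the left and right boundary of each peak, per the file headers and values, as 14 lists of single replicates, 6 pooled lists and 1 list each for MLL3 in myoblasts and LSD1 in myotubes and myoblasts. Per the submitters' processing notes, the tools included Bowtie 0.12.9, SAMtools 0.1.19 and bedtools 2.17.0, on build mm9 (NCBIM37). The caller of the peaks, its threshold and the pooling are not given in the sources. Starts were taken as 0-based and are printed 1-based on mm9.

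Overlaps were computed in Python 3.11.15 with numpy 2.4.6 and scipy 1.17.1, on chromosomes 1 to 19. A peak of at least 1 bp overlap counted as shared. Shares have exact binomial 95% intervals and differences Newcombe intervals, and a difference was called where its interval left out 0. Shares at matched widths were weighted over 5 width classes (limits 400, 800, 1500 and 3000 bp; for LSD1 peaks the limits included 600 and 900 bp). The code was tested on simulated lists. The sites, classes and factor lists were chosen with earlier results of these data known. Named regions were the 6 sites with most bases under LSD1, the 6 with most factors, the 4 without other factors with most bases under LSD1, the 4 longest runs and 3 sites on either side of the width limit. Alternatives were an overlap of 50% of the shorter peak, the wider 50% of each list, unions of replicate lists, omission of each replicate, a limit of 2000 bp, a clearance of 1 kb from myoblast LSD1, a shorter LSD1 list, a replicate block and, added after seeing the data, omission of the first 200 kb of each autosome. Positions relative to genes and motif counts had been planned. They need mm9 sequence and annotation, which were not used here. Inputs and RNA samples were not analysed here.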

Additional observations from a re-analysis of the deposited data

Results flagged for a closer look

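On the X chromosome, which the choice of sites left out, 14 of 9663 narrow MLL3 sites (0.145%, exact 95% interval 0.0792 to 0.243, counting error only) met a myotube and no myoblast LSD1 peak, against 1.50% of the narrow autosomal sites. The X chromosome held 143 myotube and 23 myoblast LSD1 peaks. The result stands here because it lies outside the main measurement, and the reason for the lower share was not tested.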

How the results depend on the processing

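The 18 differences in factor shares kept their direction, and their intervals left out 0, under the 6 settings run on them (overlap of 50%, the wider 50% of each list, unions of replicate lists, sites narrower than 2000 bp, matched widths, and without the first 200 kb of each autosome) and in all 42 omissions of a replicate. The 1 kb clearance and the shorter LSD1 list were run on the number of sites alone. The number of sites was 746 with the myotube LSD1 list limited to its widest peaks and 2262 to 3064 under the other alternatives. The ING1 difference between myotubes and myoblasts ran from -2.98 to 0.801 points when each replicate was left out, and that of its ratio from -0.448 to 6.52. At an overlap of 50% the ratio difference turned to -2.16 (exact permutation, p = 1.00). The causes were not tested. Replicate numbers recur in both states, but 2 pairs cannot show a pairing. With a replicate block over numbers 1 and 2 the ING1 difference was -0.641 points and that of the ratio 4.11 (exact sign-flip permutation, p = 1.00 and 0.5). Depth is unknown, so absence from a short list limits every share.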
